A study of Mus musculus with 11 samples.

Results

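The *Dppa* genes (developmental pluripotency associated) are a set of mouse genes named for their shared expression in early embryos and pluripotent cells, rather than for a shared protein structure. The 5 protein-coding genes examined here, *Dppa1*, *Dppa2*, *Dppa3*, *Dppa4* and *Dppa5a*, were matched by Ensembl gene identifier in the gene tables of single-embryo RNA-seq libraries, and are 5 of the 54146 genes in each table. The 11 embryos were of the C57BL/6 strain, at the 8-cell stage and embryonic day 2.5, and came from natural matings between heterozygous *Prdm10*Δ/+ mice. The 5 mutant embryos (*Prdm10*Δ/Δ) lacked exon 5 of *Prdm10*, which encodes a DNA-binding zinc finger protein, on both alleles, and the 6 control embryos were *Prdm10*+/+ or *Prdm10*Δ/+, which were not separated. Genotypes were assigned by qRT-PCR for exon 5 in the cDNA of each embryo, and libraries were prepared in 2 batches, with 16 cycles of PCR pre-amplification for batch 1 (3 controls, 2 mutants) and 13 cycles for batch 2 (3 controls, 3 mutants).

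DPPA2 and DPPA4 are SAP domain proteins that bind DNA as a pair and are known for activating genes of the early zygotic program, such as *Duxf3* and the *Zscan4* genes, in mouse embryonic stem cells. DPPA3 (also called Stella or PGC7) is a maternally supplied protein that protects methylated DNA in the zygote and keeps UHRF1, the partner of the maintenance methyltransferase DNMT1, out of the nucleus in oocytes. DPPA5A (also called ESG1) is a KH domain protein that binds RNA, and its gene lies in a cluster with relatives such as *Ooep* that are expressed in oocytes.

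Library totals ranged from 3534735 to 7195942 expected counts in controls and from 5402858 to 8265840 in mutants. *Prdm10* itself, as a check on the genotypes, was at 11.1 to 24.8 TPM (transcript abundance scaled for length and library) in controls and at 4.88 to 8.16 TPM in mutants, with no overlap. Its effective length, by which TPM is scaled, also separated the groups, at 2565 to 3357 bases in controls and 4348 to 5051 bases in mutants. Its normalised read count, which is not scaled for length, overlapped between the groups and was not called changed (log2 fold change −0.66 ± 0.26 SE, DESeq2 adjusted p = 0.215). All 6 markers chosen for 8-cell embryos, among them *Pou5f1* and *Tfap2c*, were above 1 TPM in every library. No marker for oviduct, cumulus or blood cells was above 1 TPM in every library, and their summed levels reached at most 24.3, 0.47 and 10.9 TPM in controls and 31.9, 3.08 and 1.95 TPM in mutants. The oviduct sum was mostly *Ovgp1*, which ranged from 0 to 24.2 TPM in controls and from 0 to 30.1 TPM in mutants. In whole embryos, fewer cells that express a gene and less RNA per cell cannot be told apart.

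Several *Dppa* genes have pseudogene copies, so the sequences that separate *Dppa5a* and *Dppa3* from the copies named after them are shown first. *Dppa5a* (ENSMUSG00000060461.5) lies on chromosome 9 from 78367052 to 78368177 on the minus strand of GRCm38, and its unprocessed pseudogenes *Dppa5b* (chr9:78245550-78246135) and *Dppa5c* (chr9:78271998-78272583) lie on the plus strand of the same cluster. *Dppa5b* and *Dppa5c* were identical over their 348 bases. The coding bases of *Dppa5a* exon 1 (chr9:78367985-78368099, minus strand) and the matching stretch of *Dppa5b* (chr9:78245550-78245664, plus strand) are printed from the GENCODE transcripts, 5′ to 3′, with the 3 differing bases of 115 in capitals:

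Dppa5a: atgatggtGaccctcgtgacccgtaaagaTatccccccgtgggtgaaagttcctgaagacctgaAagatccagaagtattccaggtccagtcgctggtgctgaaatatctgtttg

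Dppa5b: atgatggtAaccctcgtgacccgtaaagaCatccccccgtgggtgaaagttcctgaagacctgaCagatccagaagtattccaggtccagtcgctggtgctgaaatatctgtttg

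Of the 183 coding bases of *Dppa5a* exon 2, 178 aligned to *Dppa5b*, and of the 56 of exon 3 only 13 did. The aligned stretch of exon 2 in *Dppa5a* was chr9:78367722-78367899 (minus strand), and in *Dppa5b* chr9:78245750-78245927 (plus strand). Its differences lay closer together, with 5 differing bases of 178, again in capitals:

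Dppa5a: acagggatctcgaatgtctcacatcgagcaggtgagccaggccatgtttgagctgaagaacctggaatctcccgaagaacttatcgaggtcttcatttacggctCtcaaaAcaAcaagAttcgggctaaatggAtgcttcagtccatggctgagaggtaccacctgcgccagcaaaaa

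Dppa5b: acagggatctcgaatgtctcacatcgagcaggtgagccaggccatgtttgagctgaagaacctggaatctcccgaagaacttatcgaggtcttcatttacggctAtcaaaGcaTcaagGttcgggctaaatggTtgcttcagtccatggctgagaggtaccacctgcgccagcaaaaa

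*Dppa3* (ENSMUSG00000046323.8; chr6:122626410-122630272, plus strand) has a transcribed processed pseudogene, *Dppa3-ps*, on the X chromosome (chrX:37625647-37626097, minus strand). Its exon 2 (chr6:122628577-122628809) and the matching stretch of the pseudogene (chrX:37626011 down to 37625779) differed at 5 of 233 bases, in capitals, of which the first pair were adjacent:

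Dppa3: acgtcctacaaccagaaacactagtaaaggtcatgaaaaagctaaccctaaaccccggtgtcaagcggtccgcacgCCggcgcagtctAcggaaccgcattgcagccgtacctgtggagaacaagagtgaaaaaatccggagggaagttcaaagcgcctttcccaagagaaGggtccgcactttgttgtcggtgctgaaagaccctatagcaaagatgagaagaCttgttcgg

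Dppa3-ps: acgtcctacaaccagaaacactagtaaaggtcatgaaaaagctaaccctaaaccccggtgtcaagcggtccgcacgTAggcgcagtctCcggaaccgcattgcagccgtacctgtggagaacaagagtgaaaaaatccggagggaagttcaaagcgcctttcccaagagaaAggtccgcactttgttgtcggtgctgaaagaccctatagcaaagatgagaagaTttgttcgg

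The libraries were read as single 75-base reads, so windows of 75 bases were compared between the transcripts of each *Dppa* gene and those of all other genes, on either strand. For *Dppa3*, 31 of 817 windows (3.79%) were shared, all with *Dppa3-ps*. For *Dppa5a*, 106 of 545 windows (19.4%) were shared. *Gm6798* held 35 of them, *Dppa5b* and *Dppa5c* 30 each, *Gm15310* 26, *Pigp* 22 and *Gm6083* 2. For *Dppa4* the shared windows were 333 of 1659 (20.1%), with *Gm14058* and *Gm5501*. For *Dppa2* they were 611 of 2373 (25.7%), of which 587 were in *Gm9788*. Sharing of this kind leaves the split of reads between copies to the quantification by RSEM, which divides a shared read by the evidence of the unshared ones.

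The copies received few of the assigned reads. *Dppa3-ps* had 18.4 to 44.2 expected counts per library, at most 0.256% of those of *Dppa3*, and *Dppa5b* and *Dppa5c* had at most 3.48 each. *Gm6798* had at most 9.27 counts and *Gm15310* at most 6.58. The 2 genes that share windows with *Dppa4* had at most 26.9 counts together, or 0.964% of the *Dppa4* count. *Pigp*, an ordinary gene that shares 22 windows with *Dppa5a*, had 13 to 471 counts of its own, at most 7.07% of those of *Dppa5a*. *Gm9788* was the highest of the copies, with 1.13% to 2.27% of the *Dppa2* count in controls and 0.782% to 4.86% in mutants. The highest share was in mutant replicate 1 (561 counts against 11548 for *Dppa2*) and the lowest in mutant replicate 3 (44.9 against 5743). The posterior SD of the count that RSEM gave was at most 4.29 reads for *Dppa3*, *Dppa4* and *Dppa5a* and at most 64.2 reads for *Dppa2*, so the assignment of reads was a small part of the spread between embryos.

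Of the 5 genes, 4 were abundant in every embryo and *Dppa1* was almost silent. By TPM, which allows levels of different genes to be compared, the order was *Dppa3*, *Dppa5a*, *Dppa2*, *Dppa4* and *Dppa1* in all 11 embryos. *Dppa3* had a mean of 5060 ± 532 TPM (SD, n = 11) and ranked between 12 and 17 among all genes of each embryo. *Dppa5a* had 1993 ± 409 TPM and ranked between 50 and 122, *Dppa2* had 874 ± 171 TPM and ranked between 148 and 259, and *Dppa4* had 436 ± 58.5 TPM and ranked between 298 and 442 (SD, n = 11). The ranges of neighbours in this order did not overlap over the 11 embryos. The lowest *Dppa3* level (4240 TPM) was above the highest *Dppa5a* level (2519 TPM), the lowest *Dppa5a* level (1422 TPM) was above the highest *Dppa2* level (1185 TPM), and the lowest *Dppa2* level (595 TPM) was above the highest *Dppa4* level (558 TPM). Together the 5 genes took 0.45% to 0.621% of the counts of a library.

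**Figure D1:**
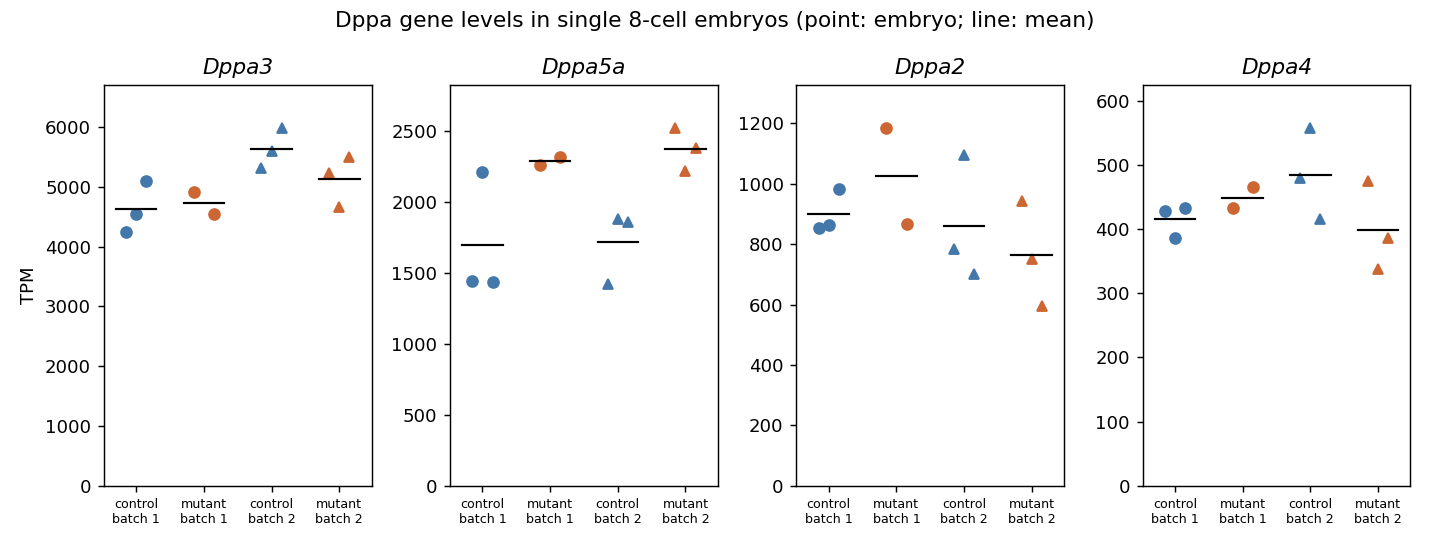
Level of each abundant *Dppa* gene in TPM (vertical axes, starting at 0 and scaled per gene) in every embryo, by group and batch. Blue points are controls and orange points mutants, circles are batch 1 and triangles batch 2, and lines are means. The mutant points of *Dppa5a* lie between 2217 and 2519 TPM, above all control points, while the groups overlap for *Dppa3*, *Dppa2* and *Dppa4*.

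To ask whether any of the 5 genes depended on PRDM10 at this stage, mutants were compared with controls with batch as a covariate. None of the 4 testable genes was called changed at a DESeq2 adjusted p under 0.05, against 1.45% of all 10448 genes tested, and 1 of the 4 (*Dppa5a*) had an unadjusted p under 0.05, as did 11.9% of all genes tested. The edgeR quasi-likelihood test called none of the 4 either, and 0.334% of the genes it tested.

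*Dppa5a* had the largest difference of the set and was higher in mutants. In batch 1 its level was 1439, 2207 and 1433 TPM in control replicates 4 to 6, and 2259 and 2316 TPM in mutant replicates 4 and 5. In batch 2 it was 1422, 1876 and 1859 TPM in control replicates 1 to 3, and 2519, 2217 and 2376 TPM in mutant replicates 1 to 3. All 5 mutants were above all 6 controls in TPM, although control replicate 5 was only slightly below the lowest mutant. Such a separation upward was found for 0.297% of the genes tested. On the scale of log2(TPM + 1) the difference was 0.47, with an exact permutation p of 0.01 (two-sided, labels exchanged within batches, 200 arrangements, n = 6 and 5).

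In normalised counts, the values used by the count test, *Dppa5a* was at 4357 ± 933 in controls (SD, n = 6) and 6058 ± 661 in mutants (SD, n = 5). Here 4 of 5 mutants were above all controls. Mutant replicate 4, of batch 1 (5207 normalised counts), was below control replicate 3, of batch 2 (5339), and close to control replicate 5 of its own batch (5203). The log2 fold change was 0.45 ± 0.16 (SE), or 1.36-fold with a 95% interval, not adjusted over genes, of 1.10 to 1.69. Its unadjusted p was 0.00458, a value at or under which 3.31% of the genes tested lay, and its adjusted p was 0.142 by DESeq2 and 0.290 by edgeR. The estimate was 0.43 in batch 1 alone and 0.47 in batch 2 alone. Leaving out control replicate 5, the highest control of its batch, moved the estimate to 0.55 (DESeq2 adjusted p = 0.0217), the only alternative in which *Dppa5a* passed the threshold. That fit called 0.98% of the genes it tested. The controls spread more than the mutants, with coefficients of variation of 21.4% and 10.9% in normalised counts and of 19.1% and 5.05% in TPM.

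*Dppa3*, the most abundant of the set, showed no such separation. Its level was 4240 to 5987 TPM in controls (median 5210) and 5227, 4666, 5505, 4916 and 4549 TPM in mutant replicates 1 to 5, so every mutant lay within the range of the controls of both batches together. Within batch 2, mutant replicates 1 and 2 lay below the 3 controls, at 5323 to 5987 TPM, and within batch 1 both mutants lay among the controls. The normalised count was 17781 ± 3912 in controls (SD, n = 6) and 17474 ± 2395 in mutants (SD, n = 5). The difference in counts was −0.06 ± 0.13 on the log2 scale (SE, DESeq2 adjusted p = 0.933), and its 95% interval was −0.31 to 0.20, or 0.808-fold to 1.14-fold.

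*Dppa2* (ENSMUSG00000072419.5; chr16:48303908-48319723, plus strand) and *Dppa4* (ENSMUSG00000058550.15; chr16:48283733-48294237, plus strand), the genes of the protein pair, lie side by side, with their starts 20.2 kb apart. *Dppa2* was at 702 to 1096 TPM in controls (median 858) and at 943, 749, 595, 1185 and 865 TPM in mutant replicates 1 to 5. The highest and the lowest of the 11 values were both in mutants. *Dppa4* was at 386 to 558 TPM in controls (median 430) and at 474, 337, 385, 432 and 465.5 TPM in the same mutants, again overlapping. The ratio of *Dppa2* to *Dppa4* in TPM was 1.97 ± 0.27 in controls (SD, n = 6) and 2.07 ± 0.45 in mutants (SD, n = 5).

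Neither gene of the pair was called. The log2 fold change of *Dppa2* was −0.01 ± 0.18 (SE, DESeq2 adjusted p = 0.990), with a 95% interval of 0.779-fold to 1.26-fold. That of *Dppa4* was −0.10 ± 0.15 (SE, adjusted p = 0.871), with an interval of 0.763-fold to 1.13-fold. Their estimates had opposite signs in the batches. *Dppa2* was at 0.17 in batch 1 and −0.16 in batch 2, and *Dppa4* at 0.11 and −0.27 on the log2 scale. The standard errors were 0.24 and 0.25 for *Dppa2* and 0.22 and 0.23 for *Dppa4*. The exact permutation test on log2(TPM + 1), within batches, gave p = 0.92 for *Dppa2*, 0.405 for *Dppa4* and 0.41 for *Dppa3* (two-sided, n = 6 and 5).

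*Dppa1* (ENSMUSG00000064010.12; chr11:46607772-46629261, minus strand) could not be compared. It had 2 counts in mutant replicate 1, 1 count in mutant replicate 5 and 0 counts in the other 9 libraries. A count of 0 allows up to 3 counts, which is 0.363 to 0.849 CPM (counts scaled to the library total) in these libraries, and both values above 0 were under that limit, so no fold change is given.

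**Figure D2:**
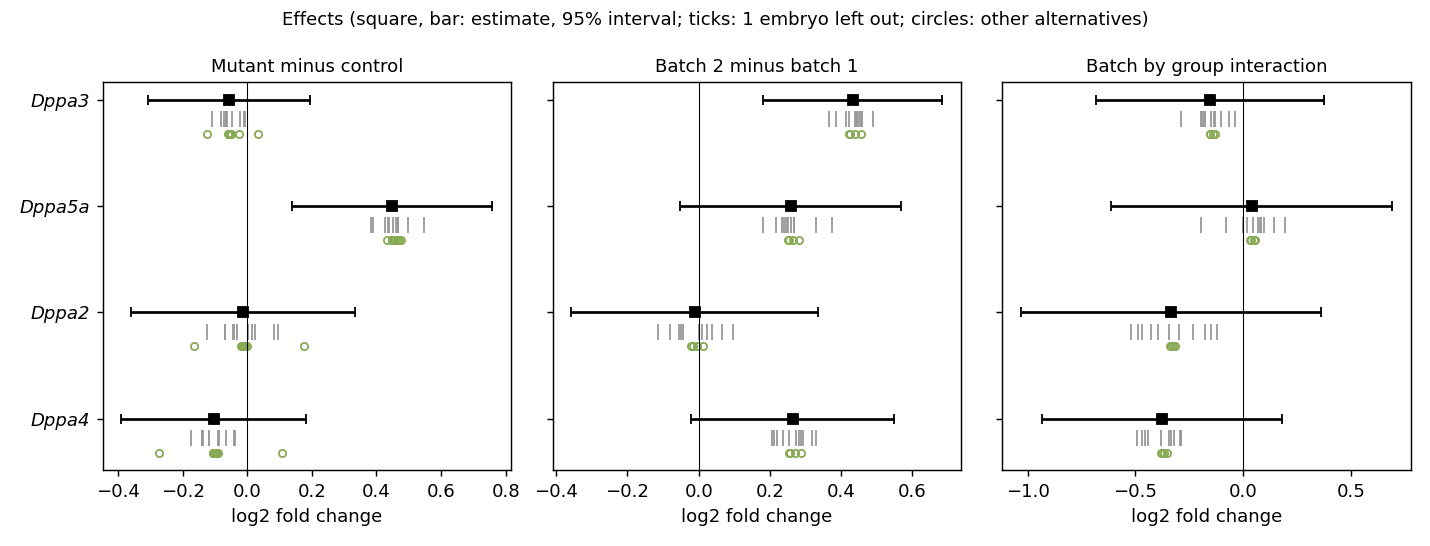
Log2 fold changes (horizontal axes) of the 4 testable genes for mutant minus control, batch 2 minus batch 1, and the batch by group interaction. Squares and bars are the DESeq2 estimate with its 95% interval, grey ticks leave out 1 embryo each, and green circles are the other alternatives. Of the group estimates only that of *Dppa5a* has an interval clear of 0, and of the batch estimates only that of *Dppa3*.

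Between the preparation batches *Dppa3* had the largest difference of the members, although such differences were common over all genes. Controls were at 4240, 4545 and 5097 TPM in batch 1 and at 5323, 5603 and 5987 TPM in batch 2, with no overlap, while mutants were at 4916 and 4549 TPM in batch 1 and at 5227, 4666 and 5505 TPM in batch 2, with overlap. In the count test *Dppa3* was higher in batch 2, by 0.43 ± 0.13 on the log2 scale (SE, adjusted p = 0.00603 by DESeq2 and 0.0125 by edgeR). It was the only one of the 4 genes called, a share no higher than the 27.9% of all genes tested that were called between the batches. *Dppa4* and *Dppa5a* were at 0.26 ± 0.15 and 0.26 ± 0.16 (SE) and *Dppa2* at −0.01 ± 0.18, none of them called. Whether *Dppa3* differed from the other members in this was not tested. The batches differed in the number of PCR cycles and in whatever else set the preparations apart, which cannot be told apart here.

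An interaction term asked whether genotype acted differently in the 2 batches. None of the 4 genes was called (DESeq2, unadjusted p from 0.185 for *Dppa4* to 0.908 for *Dppa5a*), and 0.0382% of all genes tested were. The intervals were wide. For *Dppa5a* the difference between the batches in its log2 fold change was 0.04, with a 95% interval of −0.61 to 0.69, and for *Dppa4* it was −0.38, with an interval of −0.94 to 0.18.

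Genes known to depend on the DPPA2 and DPPA4 pair in stem cells were mostly too low to test. Of 13 listed, 3 had a mean normalised count above 10, and 1 of the 3 was called by DESeq2 and none by edgeR, which called 1.45% and 0.334% of all genes they tested. *Syce1* and *Tcstv3* had group means above 10 in controls but not in mutants, so this count is not a result about the list. *Syce1*, a synaptonemal complex gene, fell from 18.2 ± 13.4 in controls (SD, n = 6) to 2.62 ± 3.35 in mutants (SD, n = 5), a difference of −3.34 ± 0.98 on the log2 scale (SE, DESeq2 adjusted p = 0.0465). The ranges of the groups overlapped, edgeR gave an adjusted p of 0.308, and *Syce1* was not called in either batch alone. At these low counts its estimate was unstable, at −1.33 in batch 1 alone and −6.15 in batch 2 alone. *Mael*, a piRNA pathway gene (log2 fold change −0.72 ± 0.64, adjusted p = 0.741), and *Tcstv3* (−0.73 ± 1.13, adjusted p = 0.890) were not called. The other 10 genes, *Duxf3*, the 6 *Zscan4* genes, *Zfp352*, *Tcstv1* and *Nkx2-5*, had means of at most 5.83 normalised counts. The *Zscan4* and *Tcstv* genes are near-identical copies whose shared reads are divided by estimate, so their single values are uncertain. The median over the 3 tested genes was −0.73, the value of *Tcstv3* itself (−0.0012 over all genes tested). With so few genes, some of them near the count filter, nothing about the list is drawn from it.

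All 12 genes of DNA methylation linked to DPPA3 were testable, and none was called, which with 1.45% of all tested genes called says little about 12 genes. *Trim28*, a corepressor of imprinted regions and retroelements and the most abundant of them, was at 2607 ± 940 normalised counts in controls and 2412 ± 336 in mutants (log2 fold change −0.04 ± 0.21, SE). *Tet1*, a methylcytosine dioxygenase, was at −0.01 ± 0.26. *Dnmt1* was at 104 ± 46.0 normalised counts in controls and 48.6 ± 20.9 in mutants, a log2 difference of −1.05 ± 0.33 (SE, adjusted p = 0.0754 by DESeq2 and 0.296 by edgeR). *Uhrf1*, at −0.84 ± 0.47 (adjusted p = 0.504), was chosen for mention after its value was seen, as was *Dnmt1*, the 1 gene of this list that is also on the study's list of genes bound by PRDM10 in stem cells. The list median was −0.02.

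Of the KH domain relatives of DPPA5A, all 5 were testable and none was called, where the share over all tested genes was 1.45%, and the list median was −0.04. *Khdc3*, a member of the subcortical maternal complex of oocytes and the most abundant relative, was at 932 ± 482 normalised counts in controls and 1084 ± 800 in mutants (log2 fold change 0.17 ± 0.59, SE). *Khdc1b* was at −0.32 ± 0.23. *Ooep*, whose start lies 10.5 kb from that of *Dppa5a*, had only 14.98 ± 6.13 normalised counts in controls and 11.01 ± 4.99 in mutants.

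Of 16 pluripotency factors, 15 were testable, 1 was called higher and none lower, beside 1.45% called in either direction over all genes tested. *Tbx3*, a T-box factor, rose from 747 ± 363 normalised counts in controls to 1280 ± 593 in mutants, a log2 difference of 0.87 ± 0.25 (SE, adjusted p = 0.0425 by DESeq2 and 0.218 by edgeR). The 2 most abundant, *Fbxo15*, at 0.07 ± 0.15, and *Sall4*, at 0.10 ± 0.14, were not called. The list median was 0.16, and 6 of its 15 genes had an unadjusted p under 0.05, in both directions, against 11.9% of all genes tested. *Fbxo15* (23904 normalised counts in controls) exceeded *Dppa3* in this scale, which is not scaled for length.

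**Figure D3:**
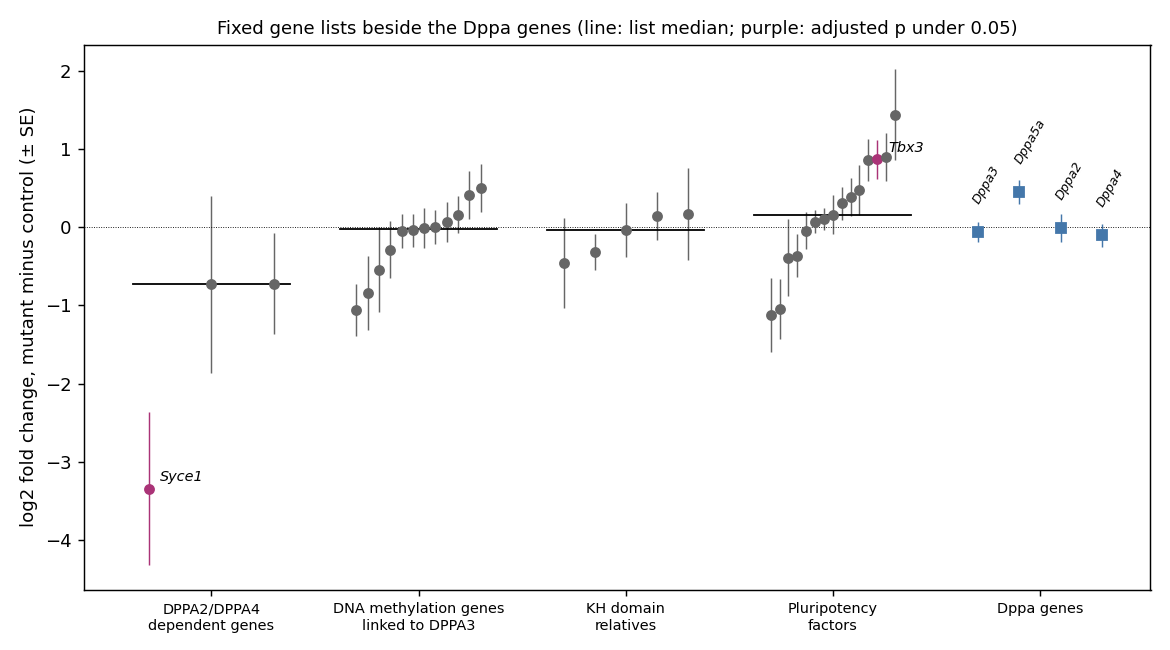
Log2 fold change of mutants against controls (vertical axis, with SE bars) for the testable genes of 4 lists, beside the *Dppa* genes (blue squares). Horizontal lines are list medians, and purple points have a DESeq2 adjusted p under 0.05: *Syce1* at −3.34 and *Tbx3* at 0.87. *Syce1* had a group mean above 10 normalised counts in controls but not in mutants.

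Genes near the *Dppa* genes were compared in the same way. Within 150 kb of a member were 50 other genes, of which 22 were testable. None was called by DESeq2 or edgeR, whose shares of calls over all genes were 1.45% and 0.334%, and 2 had an unadjusted p under 0.05, a share no higher than the 11.9% over all genes tested. These were *Nanog* and *Slc2a3*, near *Dppa3*. *Nanog*, a homeodomain factor whose start lies 81.1 kb downstream of that of *Dppa3*, was at −1.05 ± 0.38 (SE, DESeq2 adjusted p = 0.167), and *Slc2a3*, a glucose transporter, was at −0.61 ± 0.28 (adjusted p = 0.353). *Gdf3*, a TGF-beta family ligand on the other side of *Dppa3*, was at 1.44 ± 0.76 (adjusted p = 0.459). *Dppa3*, between them, was at −0.06.

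Around *Dppa5a* the 11 testable genes had mean normalised counts of at most 66.7, except for the translation elongation factor gene *Eef1a1*, at 14618 ± 1893 normalised counts in controls and 16614 ± 2040 in mutants (log2 fold change 0.17 ± 0.13, SE). *Gsta2*, 12.4 kb away, was at 0.25 ± 0.57. Beside *Dppa2* and *Dppa4*, *Morc1* had a mean of 18.9 normalised counts and *Gm5485* of 34.3. *Dppa1*, at 0 in most embryos, lies 77.8 kb from *Timd2*, which had a mean of 26607 normalised counts and a log2 fold change of 0.07 ± 0.16. None of the 5 *Dppa* genes and none of the 22 testable neighbours was on the study's list of genes bound by PRDM10 in stem cells. The share of all genes on that list was not computed, and binding in embryos was not measured, so these counts are not a result about these genes.

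**Figure D4:**
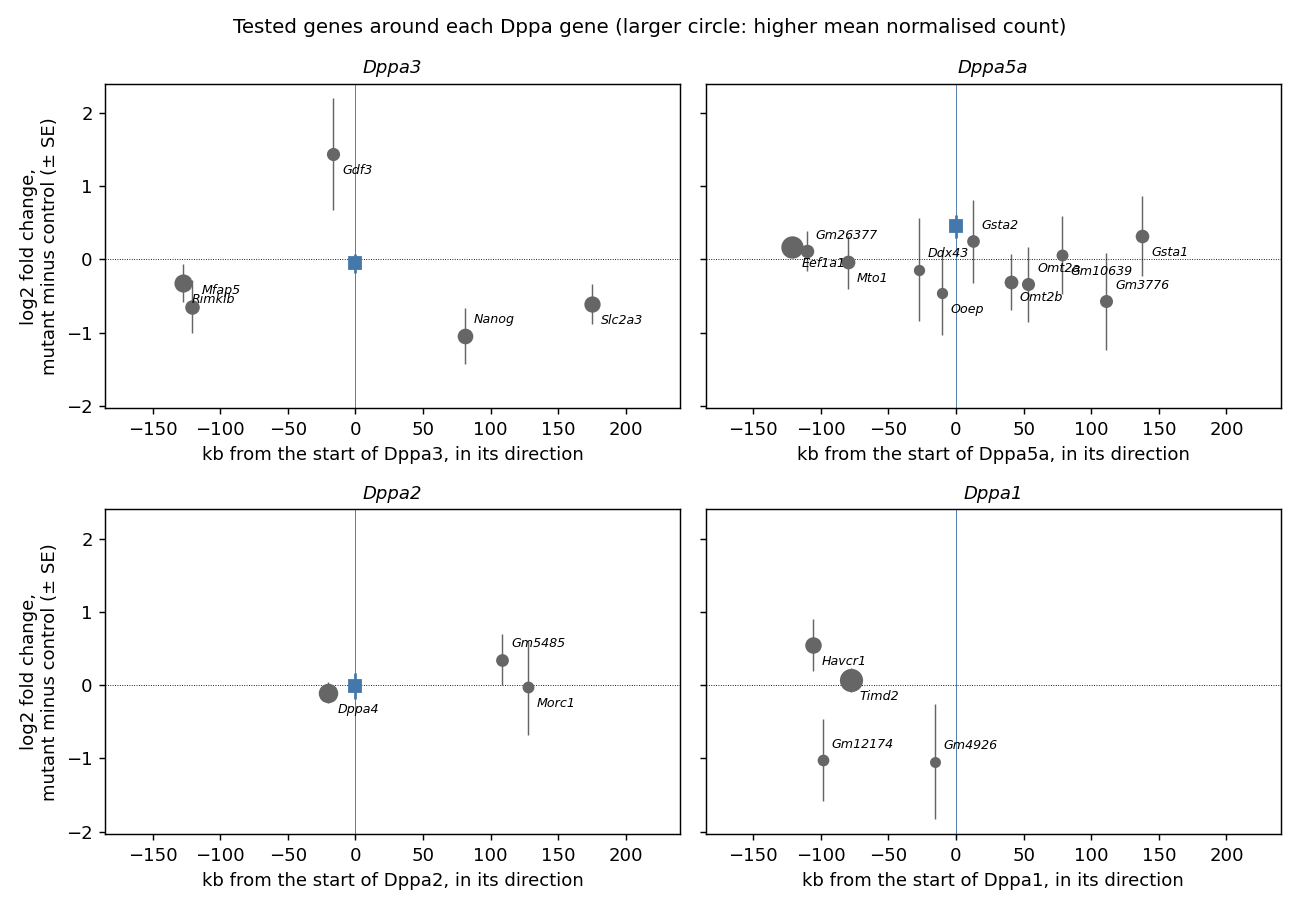
Log2 fold change of mutants against controls (vertical axes, with SE bars) of testable genes around *Dppa3*, *Dppa5a*, *Dppa2* and *Dppa1*, by the distance of their starts in kb in the direction of the *Dppa* gene (horizontal axes). Blue squares are the *Dppa* genes and circles grow with the mean normalised count. None of the circles is a called gene, and *Gdf3* at 1.44 and *Nanog* at −1.05 lie on either side of *Dppa3*.

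The variation left among embryos after the mean of each batch and group was removed was used to name the genes most like each member, by Pearson's r of log2(normalised count + 1) over 11 embryos and 10488 other genes. For *Dppa3* these were *Mrps14* (r = 0.94), *Hcfc1r1* (0.94) and *Mrpl18* (0.93), and for *Dppa5a* they were *Rps18* (0.96), *Vapb* (0.94) and *Pmf1* (0.91). For *Dppa2* they were *Taf1b* (0.99), *Snx6* (0.92) and *Echdc1* (0.92), and for *Dppa4* *Tktl1* (0.95), *Rabl2* (0.95) and *Wdr77* (0.95). No member was among the 3 genes nearest to another. These values describe the highest of many correlations over few embryos that share library depth and preparation, and carry no test.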

How the data were processed

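Single-embryo Smart-seq2 libraries (75-base single-end reads) from 6 control and 5 mutant 8-cell embryos were analysed. The authors mapped reads to GRCm38.p6 with STAR 2.6.0c and quantified genes with RSEM (GENCODE annotation). Each deposited table gives, per gene, the RSEM expected count, in which reads shared between genes are divided by estimate, the TPM, the effective length and the posterior SD. The authors' comparison table, with their DESeq2 fold changes and p-values, was not used.

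Expected counts were rounded to whole numbers and fitted over all genes with DESeq2 1.42.0 (Wald test, batch and group, unshrunken log2 fold changes, Benjamini-Hochberg adjustment). A call required an adjusted p under 0.05 and a mean over 10 normalised counts. The batch by group interaction was fitted alike. TPM values were compared on log2(TPM + 1) with exact permutation tests within batches. Alternatives were edgeR 4.0.16, limma 3.58.1 on log2(TPM + 1), other scalings and filters, no batch term, each batch alone and leaving out each embryo. The fits were tested on simulated data, where DESeq2 recovered more of the changed genes than edgeR but also made more false calls, above the nominal rate. Symbols, coordinates and transcripts came from a later GENCODE release (GRCm38).

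The rule for named genes took the 5 members, other genes named *Dppa*, *Prdm10*, the called and the 2 most abundant genes of each list, testable genes within 150 kb, and the 3 genes most like each member. *Dnmt1* and *Uhrf1*, genes that share sequence with members, markers and the list genes too low to test are named outside it. The members and lists were chosen with earlier results of these data known. Replicate numbers follow the order of the samples and pair no embryos. Nothing in the labels says whether embryos shared a litter, so p-values measure the spread between these embryos. Without molecular identifiers, limits from counts cover counting error only.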

Additional observations from a re-analysis of the deposited data

How the results depend on the processing

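The direction of the *Dppa5a* difference held in every alternative run, with log2 fold changes of 0.43 to 0.48 over other tests, filters, scalings and batches (adjusted p up to 0.849, in batch 1 alone, and 0.614 in batch 2 alone) and of 0.38 to 0.55 when 1 embryo was left out (DESeq2 adjusted p up to 0.565). It passed the threshold only without control replicate 5, where 1 of the 4 genes was called rather than 0. In TPM its exact permutation p (n = 6 and 5 in all) was at most 0.04 in every alternative. *Dppa3* remained called between the batches by edgeR, with TMM factors, the effective-length offset or the filter of 10 counts in 5 libraries, and with each embryo left out (adjusted p up to 0.0308). The other alternatives were not run for the batch difference.

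In batch 1 alone the signs of 3 genes turned, to 0.175 for *Dppa2*, 0.0326 for *Dppa3* and 0.109 for *Dppa4*, none of them called there. *Dppa2*, near 0 throughout, ranged from −0.125 to 0.094 when 1 embryo was left out, and its batch difference from −0.115 to 0.0972, with 0.0109 by edgeR. Its TPM difference became 1.08 TPM without a log, and −0.133 to 0.0935 on the log2 scale with 1 embryo left out. The interaction of *Dppa5a* ranged from −0.20 to 0.20 in the same way. The causes of these turns were not tested.

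Over all genes, the 151 calls became 35 by edgeR, 22 by limma, 51 with no batch term, 78 in batch 1 alone and 48 in batch 2 alone. They ranged from 90 (without mutant replicate 2) to 265 (without control replicate 2), and were 91 without mutant replicate 5. The *Syce1* call (1 gene of its list) was absent, leaving 0, by edgeR, by limma, with the effective-length offset, with the filter of 10 counts in 5 libraries, with a mean above 100, with no batch term and in each batch alone, and in 9 of the 11 fits with 1 embryo left out, so that the list held 1 call only without control replicate 4 or 5 and 0 otherwise. The *Tbx3* call was lost, leaving 0 pluripotency factors, by edgeR, by limma, with the effective-length offset, with no batch term and in batch 2 alone, and the count was also 0 without control replicate 1, 3 or 5 and without mutant replicate 2, 3, 4 or 5. Leaving out control replicate 2 raised it to 3 and leaving out mutant replicate 1 to 2. With the effective-length offset 1 gene of the methylation list, *Dnmt1*, was called. No paired analysis was possible because the labels number no replicates, and the numbers used here only follow the order of the samples.

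Counting error is small beside the spread between embryos for the 4 abundant genes. *Dppa1* and most genes dependent on DPPA2 and DPPA4 had too few counts to test, and whether deeper libraries would show them was not tested.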
